A study of Mus musculus with 119 samples.

Results

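Expression of 7 genes of the integrated stress response was followed through every genotype, inhibitor and LPS time of an RNA-seq study of mouse bone marrow-derived macrophages (BMDMs). The genes were taken by symbol from the deposited expression table, as Atf4, Ddit3, Trib3, Chac1, Sesn2, Ppp1r15a and Asns. All 7 were found among the 18098 genes of the table, and all 7 passed the filter on low values, which left 11884 genes in a fit of 62 libraries and 11971 genes in a fit of all libraries.

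BMDMs are macrophages grown in culture from bone marrow with L-cell conditioned medium, and the study asked how the kinase TPL-2, encoded by Map3k8, and the ERK pathway below it shape the transcriptional response to LPS. All cells were of the C57BL/6(NIMR) strain, and LPS was used at 100 ng/ml. WT cells (n = 6 at 0, 0.5 and 1 h, n = 4 at 2 h) and cells with the kinase-inactive Map3k8 D270A/D270A allele (n = 6 at each of those 4 times) were stimulated for 0, 0.5, 1 or 2 h. Cells lacking the transcription factors ELK1 and ELK4 (Elk1-/- Elk4-/-, n = 4 at each time) were sampled at the same times. Nfkb1 SSAA/SSAA cells, in which the p105 protein has serines replaced by alanine so that it is no longer degraded after stimulation and keeps TPL-2 inactive, were sampled at 0, 0.5 and 1 h (n = 6 each). The remaining libraries were not labelled as mutant: cells pre-treated with 0.1 µM PD0325901, an inhibitor of the ERK kinases MEK1 and MEK2, were stimulated for 0.5 or 1 h (n = 6 each) or kept without LPS for 10, 40 or 70 min (n = 3 each) beside a 10 min DMSO control (n = 3), and cells pre-treated with 2 µM RSKi47, an inhibitor of the RSK kinases, were sampled at 0, 1 and 2 h (n = 4) and 0.5 h (n = 3). The alleles were in the germ line of the mice, so they acted throughout the culture and not only during stimulation. No library combined DMSO with LPS, and the WT controls of the Elk1 Elk4, Nfkb1, PD0325901 and RSKi47 comparisons were those of the Map3k8 experiment, so that genotype or inhibitor and experiment cannot be told apart there.

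The integrated stress response is a shared output of kinases that phosphorylate the translation factor eIF2α: PERK senses stress of the endoplasmic reticulum, GCN2 senses amino acid shortage, PKR senses double-stranded RNA and HRI senses heme shortage. Phosphorylated eIF2α slows most protein synthesis but favours translation of the mRNA of ATF4, a transcription factor that then switches on genes of amino acid supply, redox balance and recovery. Among the 7 genes, Atf4 encodes that factor, Ddit3 encodes CHOP, a second transcription factor of prolonged stress, and Trib3 encodes a pseudokinase that binds and restrains ATF4 and CHOP. Chac1 encodes an enzyme that degrades glutathione, Sesn2 encodes sestrin 2, a leucine-binding inhibitor of mTORC1, Asns encodes asparagine synthetase, and Ppp1r15a encodes GADD34, which brings a phosphatase to eIF2α and so ends the response. Because ATF4 is set mainly by translation, the level of Atf4 mRNA is not a measure of ATF4 protein.

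ATF4 binds its targets with partners of the C/EBP family at composite C/EBP-ATF elements. Promoters of the 7 genes were taken from RefSeq (GRCm38.p6, 250 bases before to 50 bases after the start of each gene, all 7 genes matched) and read on both strands for the element as TGATGNAAN, for the cAMP response element TGACGTCA and for the CArG box bound by SRF, the partner of ELK1 and ELK4. The 4 stretches below hold the matches and are printed 5′ to 3′ along the gene's own strand, with the matching bases in capitals.
Chac1, chr2:119351024-119351080, + strand: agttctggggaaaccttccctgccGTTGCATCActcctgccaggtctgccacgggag
Asns, chr6:7693210-7693256, - strand: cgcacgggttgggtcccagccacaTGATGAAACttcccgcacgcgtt
Trib3, chr2:152344029-152344057, - strand: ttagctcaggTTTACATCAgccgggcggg
Ppp1r15a, chr7:45526269-45526304, - strand: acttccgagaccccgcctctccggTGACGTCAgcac

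The composite pattern was present at Chac1 (bases -194 to -186 relative to the start, read TGATGCAAC on the opposite strand), at Asns (bases -23 to -15) and at Trib3 (bases 14 to 22, read TGATGTAAA on the opposite strand). The cAMP response element was present at Ppp1r15a, at bases -12 to -5, and these 8 bases read the same on both strands. Of all 32851 promoters of the same length, 3.95% held the composite pattern, 1.79% the cAMP response element and 1.63% a CArG box, which matched at none of the 7 genes. These matches describe letters only, and elements outside the windows were not searched. The gene bodies lie at chr15:80255184-80257545 (Atf4), chr10:127290793-127296291 (Ddit3), chr2:152337425-152344060 (Trib3), chr2:119351242-119354326 (Chac1), chr4:132492804-132510456 (Sesn2), chr7:45522917-45526268 (Ppp1r15a) and chr6:7675165-7693209 (Asns).

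All values below are the authors' normalised values on a log2 scale, on which a difference of 1 is a 2-fold change. They are not per length, so levels are compared between groups for 1 gene at a time and not between genes. Differences come from limma fits across all tested genes, with Benjamini-Hochberg adjustment, and a gene was called changed at an adjusted p below 0.05; SE is the standard error of a log2 difference. The table gives no read counts, so the depth behind each value is unknown.

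The libraries matched their labels as far as mRNA can show. All 10 macrophage markers were above the filter in every group, mean Elk1 and Elk4 values were 6.25 to 6.36 and 5.57 to 5.76 in the Elk1-/- Elk4-/- groups against 9.05 to 9.40 and 7.72 to 8.18 in WT cells. The point mutations of Map3k8 and Nfkb1 cannot be checked by the mRNA levels of these genes. The paper reports LPS induction of Egr1 as reduced by both mutations and by PD0325901. Mean Egr1 at 0.5 h of LPS was 13.32 in WT, 8.91 in Map3k8 D270A/D270A and 8.84 in PD0325901-treated cells. It was 10.76 in Nfkb1 SSAA/SSAA cells at that time, which had 7.65 without LPS. The summed level of 9 neutrophil markers was 10.0 to 11.05 in Elk1-/- Elk4-/- libraries, where Camp joined the 4 markers above the filter, and 6.21 to 7.77 in WT and Map3k8 D270A/D270A libraries. The summed level of 5 stromal markers was 5.05 to 9.41 in RSKi47 libraries, where Col1a1 and Col1a2 were above the filter, and 3.89 to 4.92 in the other groups, where at most Col1a2 was. In such bulk samples fewer cells of a type and less RNA per cell cannot be told apart. WT libraries are numbered 4 to 9 and Map3k8 D270A/D270A libraries 1 to 6, and in both lines the first 3 and last 3 numbers stood apart for several of the 7 genes. The labels do not say what separates these sets, so values within WT 4 to 6 with Map3k8 D270A/D270A 1 to 3, and within WT 7 to 9 with Map3k8 D270A/D270A 4 to 6, are given beside the results that they change. WT 7 is the only 2 h WT library of the second set, so every 2 h value of that set rests on 1 WT library that is assumed to vary like the other groups, and neither a kept nor a lost call there says much about the difference.

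LPS alone moved the 7 genes in opposite directions in WT BMDMs. Ppp1r15a was induced within 0.5 h, Atf4 and Chac1 were higher from 1 h and Asns at 2 h, whereas Ddit3 was called lower at 1 and 2 h and Sesn2 and Trib3 were lower at 2 h. The number of the 7 genes called changed was 1 at 0.5 h, 4 at 1 h and 7 at 2 h, against 11.6%, 46.8% and 71.5% of all genes tested. Summed marker levels of other cell types moved as well by 2 h: 4 T-cell markers from 3.52 to 3.83 without LPS to 5.17 to 6.32, with Cd3e, Cd3d and Cd3g below the filter at both times, and 4 dendritic cell markers from 4.35 to 4.48 to 5.79 to 6.07, with Flt3 and Siglech below it. Their part in the changes was not tested.

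Ppp1r15a, the phosphatase subunit gene, ran from 10.35 through a median of 10.49 to 10.59 in the 6 unstimulated WT libraries and from 13.00 through 13.27 to 13.56 at 0.5 h. At 1 h it ran from 13.14 through 13.26 to 13.49, and at 2 h the 4 libraries had 12.28, 12.34, 12.31 and 12.06. The stimulated groups did not overlap the unstimulated one at any time, and the log2 differences were 2.78 (SE 0.08) at 0.5 h, 2.80 (SE 0.08) at 1 h and 1.76 (SE 0.09) at 2 h, each called by limma (adjusted p = 1.04e-34, 1.80e-35 and 1.36e-24). Within the 0.5 h group, WT 4, 5 and 6 had 13.03, 13.00 and 13.07 and WT 7, 8 and 9 had 13.56, 13.46 and 13.48.

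Atf4 mRNA lay between 11.72 and 11.80 (median 11.77) without LPS, between 11.83 and 11.91 (median 11.85) at 0.5 h and between 12.14 and 12.29 (median 12.22) at 1 h. The 4 libraries of 2 h had 12.15, 12.23, 12.10 and 12.10. No stimulated library reached down to the unstimulated range, and Atf4 was called higher at 1 h (log2 difference 0.45, SE 0.04, adjusted p = 7.10e-15 by limma) and at 2 h (0.38, SE 0.04, adjusted p = 3.45e-11). Quantile normalization of the libraries lowered the 1 h difference to 0.27, which was still called, and ended the 2 h call, with a difference of 0.00 (adjusted p = 0.953).

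Chac1 had low values throughout. It ran from 4.39 through 4.58 to 4.74 without LPS and from 4.81 through 5.06 to 5.41 at 1 h, and the 2 h libraries had 5.14, 5.41, 5.004 and 5.59. The 1 h and 2 h groups lay wholly above the unstimulated group, with log2 differences of 0.51 (SE 0.15, adjusted p = 0.00459 by limma) and 0.72 (SE 0.17, adjusted p = 0.000202). Asns, the asparagine synthetase gene, ran from 8.30 through 8.36 to 8.66 without LPS and had 9.04, 8.997, 8.89 and 9.18 at 2 h, again without overlap, a log2 difference of 0.60 (SE 0.10, adjusted p = 1.69e-07).

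Ddit3 and Sesn2 took the other direction. Ddit3 ran from 9.36 through 9.59 to 9.71 without LPS and from 8.79 through 8.98 to 9.18 at 1 h, and had 8.65, 8.69, 8.53 and 8.64 at 2 h. Both later groups lay wholly below the unstimulated one, with log2 differences of -0.57 (SE 0.10, adjusted p = 5.72e-06 by limma) and -0.93 (SE 0.12, adjusted p = 5.37e-10). Sesn2 stayed between 8.66 and 9.2001 in all 18 WT libraries of the first 3 times and had 7.74, 7.82, 7.69 and 7.87 at 2 h (log2 difference -1.11, SE 0.11, adjusted p = 1.83e-13).

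Trib3 ran from 6.96 through 7.07 to 7.17 without LPS and had 6.84, 6.90, 6.56 and 6.79 at 2 h, a log2 difference of -0.29 (SE 0.12, adjusted p = 0.0344 by limma). The groups did not overlap, but the call was lost when any of WT 4, 6, 7, 8 or 9 was left out (differences of -0.31 to -0.24, adjusted p = 0.0515 to 0.135) and under quantile normalization (-0.15, adjusted p = 0.255). It was -0.23 within WT 4 to 6 (adjusted p = 0.0238) and -0.34 with WT 7 as the 1 stimulated library of the second set (adjusted p = 0.142). Ddit3 at 0.5 h was called lower within WT 4 to 6 (-0.29, adjusted p = 0.000176), in the fit of all libraries (-0.29, adjusted p = 0.0445), with libraries centred on their median (-0.31, adjusted p = 0.0422) and after quantile normalization (-0.33, adjusted p = 0.0211). Within WT cells, samples with the same number at different times deviated together, and with the number as a block 3 more differences were called: Atf4 at 0.5 h (0.09, adjusted p = 0.0189), Ddit3 at 0.5 h (-0.29, adjusted p = 0.00211) and Asns at 1 h (0.18, adjusted p = 0.00066).

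**Figure D1:**
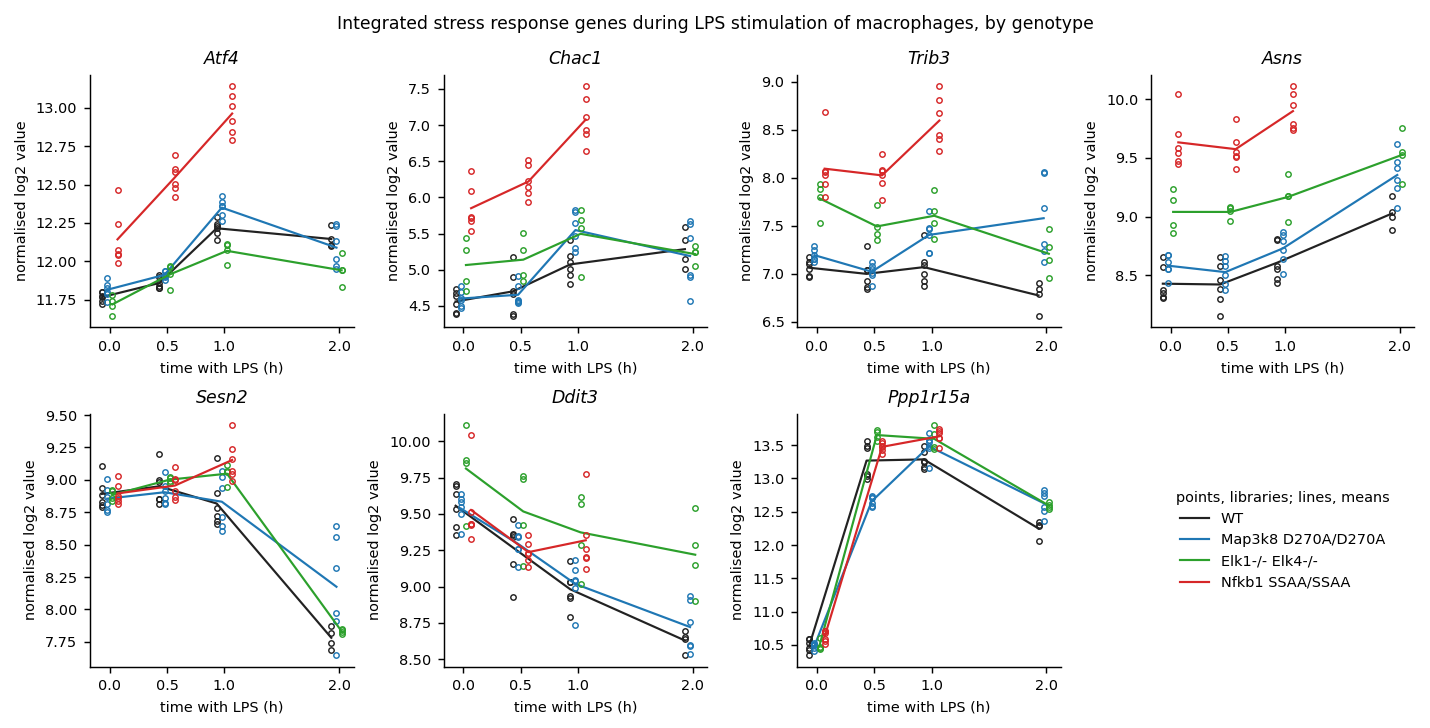
Normalised log2 values of the 7 genes (vertical axis) against time with LPS in h (horizontal axis) in WT, Map3k8 D270A/D270A, Elk1-/- Elk4-/- and Nfkb1 SSAA/SSAA BMDMs; points are libraries and lines join group means. Ppp1r15a rose to 13.00 to 13.56 by 0.5 h in WT cells, and the Nfkb1 SSAA/SSAA libraries lay above the WT libraries for Atf4, Trib3, Chac1 and Asns at every time sampled.

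Loss of TPL-2 catalytic activity left the 7 genes without a called difference before LPS, and between 1 and 4 of them were called at each time with LPS. At 0 h, 0 of the 7 were called by limma, against 1.44% of all genes. An unadjusted p below 0.05 was found for 0 of the 7, beside 1420 of 11884 genes. The single call at 0.5 h was a lower Ppp1r15a (1.37% of genes called), the 3 calls at 1 h were higher Atf4, Chac1 and Trib3 (9.79%), and the 4 calls at 2 h were higher Trib3, Sesn2, Ppp1r15a and Asns (27.7%). At 2 h the summed macrophage markers were 18.73 to 18.91 in the mutant and 18.92 to 19.06 in WT cells. The summed dendritic cell markers were 5.20 to 5.80 and 5.79 to 6.07, and the part of these markers was not tested.

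Ppp1r15a at 0.5 h ran from 12.57 through 12.67 to 12.73 in Map3k8 D270A/D270A cells and from 13.00 through 13.27 to 13.56 in WT cells. The groups did not overlap, and the log2 difference was -0.61 (SE 0.08, adjusted p = 2.37e-07 by limma). It was called within both replicate sets, at -0.41 (adjusted p = 0.00012) in the first and -0.82 (adjusted p = 2.06e-06) in the second.

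By 2 h the order had turned for this gene. Map3k8 D270A/D270A libraries ran from 12.36 through 12.65 to 12.83 and the WT libraries had 12.28, 12.34, 12.31 and 12.06, with no overlap and a log2 difference of 0.38 (SE 0.09, adjusted p = 0.000852 by limma). At 1 h the values overlapped (13.16 to 13.67 against 13.14 to 13.49), and the difference of 0.20 was not called (adjusted p = 0.121). It was called within the first replicate set (0.22, adjusted p = 0.0058), in the fit of all libraries (0.20, adjusted p = 0.0461) and after quantile normalization (0.25, adjusted p = 0.0301), but not within the second set (0.17, adjusted p = 0.226).

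Trib3 gave the largest difference of the line. At 2 h the Map3k8 D270A/D270A libraries 1 to 3 had 7.12, 7.24 and 7.31, libraries 4 to 6 had 7.69, 8.06 and 8.05, and the WT libraries had 6.84, 6.90, 6.56 and 6.79. Every mutant library lay above every WT library, and the log2 difference was 0.81 (SE 0.12, adjusted p = 9.22e-07 by limma). The difference was 0.46 within the first set (adjusted p = 0.000298) and 1.15 in the second, where WT 7 stood alone.

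Sesn2 at 2 h showed the same division within the mutant line, with 7.65, 7.97 and 7.91 in libraries 1 to 3 and 8.32, 8.64 and 8.56 in libraries 4 to 6, against 7.74, 7.82, 7.69 and 7.87 in WT cells. The groups overlapped through library 1. The log2 difference of 0.39 (SE 0.11, adjusted p = 0.00431 by limma) became 0.09 within the first set (adjusted p = 0.202) and 0.63 against WT 7 in the second (adjusted p = 0.0062). It was not called with only the libraries of the groups compared in the fit (0.39, adjusted p = 0.178). Asns at 2 h ran from 9.08 through 9.36 to 9.62 in the mutant and overlapped the WT values of 9.04, 8.997, 8.89 and 9.18 (difference 0.33, SE 0.10, adjusted p = 0.0068). It was called in the first set (0.23, adjusted p = 0.0102) and not against WT 7 in the second (0.32, adjusted p = 0.072).

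Atf4 and Chac1 at 2 h were not called over both sets (differences of -0.06, adjusted p = 0.37, and -0.10, adjusted p = 0.734). Within the first set they were called lower in Map3k8 D270A/D270A cells, by -0.18 for Atf4 (adjusted p = 0.000642) and -0.39 for Chac1 (adjusted p = 0.015), whereas within the second set the differences were 0.10 (adjusted p = 0.30) and -0.01 (adjusted p = 0.993).

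The 3 calls at 1 h were small and their groups overlapped. Atf4 ran from 12.26 through 12.36 to 12.42 in Map3k8 D270A/D270A cells and from 12.14 through 12.22 to 12.29 in WT cells (log2 difference 0.13, SE 0.04, adjusted p = 0.0175 by limma). Chac1 ran from 5.25 through 5.56 to 5.83 against 4.81 through 5.06 to 5.41 (0.47, SE 0.15, adjusted p = 0.0389), and Trib3 ran from 7.21 through 7.44 to 7.65 against 6.88 through 7.04 to 7.41 (0.34, SE 0.11, adjusted p = 0.0432). Within the second set Chac1 (0.52, adjusted p = 0.0959) and Trib3 (0.34, adjusted p = 0.19) were not called, and within the first they were (0.43, adjusted p = 0.018, and 0.33, adjusted p = 0.0103). In the fit of all libraries Atf4 was not called (0.13, adjusted p = 0.0688), and with only the groups compared Trib3 was not (0.34, adjusted p = 0.0555). The Atf4 call was lost without WT 7 or Map3k8 D270A/D270A 2 (0.12 in both cases, adjusted p = 0.058 and 0.0584). Both other calls were lost without any 1 of 9 replicate numbers, WT 4, 5, 6, 7 and 9 and Map3k8 D270A/D270A 2, 3, 5 and 6. Chac1 was then 0.42 to 0.50 (adjusted p = 0.0534 to 0.099 by limma) and Trib3 0.29 to 0.35 (adjusted p = 0.0655 to 0.122).

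Elk1-/- Elk4-/- cells carried higher Asns, Trib3 and Chac1 before LPS, and 18 of 28 comparisons of the 7 genes with WT were called over the 4 times. This line differed from WT in about every other gene: at 0, 0.5, 1 and 2 h the share of all genes called was 51.8%, 44.4%, 53.4% and 50.8%, and the counts for the 7 genes were 3, 4, 6 and 5. Of these, 3, 4, 5 and 4 were higher and 0, 0, 1 and 1 lower, when 27.2%, 22.4%, 27.2% and 27.7% of all genes were called higher and, at 1 and 2 h, 26.2% and 23.1% lower. Neutrophil markers were also higher in every library of the line, as given above, and the summed level of 4 B-cell markers was 6.45 to 7.08 against 5.52 to 6.47 in WT cells. Their part in these differences was not tested.

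Asns in the 4 Elk1-/- Elk4-/- libraries was 9.24, 8.86, 9.14 and 8.93 at 0 h, 9.07, 9.04, 9.09 and 8.96 at 0.5 h, 9.17, 9.18, 9.36 and 8.96 at 1 h and 9.52, 9.55, 9.75 and 9.28 at 2 h. The DMSO control, described below, had 8.95 to 8.99 without LPS, within the 0 h range of these libraries. At each time the lowest Elk1-/- Elk4-/- library was above the highest WT library. The log2 differences were 0.61, 0.62, 0.56 and 0.50 (SE 0.10, adjusted p = 6.98e-05 or smaller at each time by limma). Against WT 7, the only library of WT 7 to 9 at 2 h, the difference was 0.35 (adjusted p = 0.0928, with the spread taken from the other groups).

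Trib3 was 7.88, 7.79, 7.93 and 7.53 at 0 h in these cells and lay above the WT range of 6.96 to 7.17, a log2 difference of 0.72 (SE 0.12, adjusted p = 2.98e-06 by limma). It remained called at 0.5 h (0.49), 1 h (0.54) and 2 h (0.43), with overlap of the groups at 1 h. The 2 h difference against WT 7 alone was 0.42 (adjusted p = 0.18, again with 1 control library).

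Chac1 was called at 0, 0.5 and 1 h (0.50, 0.44 and 0.42), always with overlapping groups. Each of these calls was lost without certain replicate numbers, left out at all their times. With only the groups compared in the fit, Chac1 was not called at 0.5 h (adjusted p = 0.0692) or 1 h (adjusted p = 0.0613). Without Elk1-/- Elk4-/- 1 or 3 the differences at 0 h were 0.38 to 0.43 (adjusted p = 0.0607 to 0.0846). At 0.5 h the replicate numbers WT 4, 5 and 6 and Elk1-/- Elk4-/- 1 and 3 each ended the call when left out (0.31 to 0.43, adjusted p = 0.0573 to 0.178 by limma). At 1 h WT 4, 6 and 9 and Elk1-/- Elk4-/- 1, 2 and 3 each did so (0.31 to 0.41, adjusted p = 0.0558 to 0.166). Against WT 7 to 9 the differences at the 3 times were 0.42, 0.21 and 0.39 and none was called (adjusted p = 0.105, 0.47 and 0.13), and against WT 4 to 6 the 1 h call was lost as well (0.46, adjusted p = 0.0513).

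Ppp1r15a reached its highest group mean of the study here at 0.5 h, with 13.62, 13.70, 13.72 and 13.57, all above the WT maximum of 13.56. Its log2 differences from WT were 0.38 (SE 0.09, adjusted p = 0.000469 by limma) at 0.5 h, 0.31 (adjusted p = 0.0033) at 1 h and 0.34 (adjusted p = 0.0029) at 2 h. Against WT 7 to 9 alone the 0.5 h difference was 0.15 and was not called (adjusted p = 0.183), and against WT 4 to 6 alone it was 0.62 (adjusted p = 1.54e-07).

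Ddit3 and Atf4 separated from each other at the later times. Ddit3 had 9.15, 9.29, 9.54 and 8.90 at 2 h against at most 8.69 in WT cells (log2 difference 0.59, SE 0.13, adjusted p = 0.000128 by limma), and was also called at 1 h (0.39, adjusted p = 0.00419). Atf4 had 11.94, 11.94, 12.05 and 11.83 at 2 h, below the WT minimum of 12.10 (log2 difference -0.20, SE 0.05, adjusted p = 0.000327), and was called lower at 1 h too (-0.15, adjusted p = 0.00379). Against WT 7 to 9 alone, Atf4 was not called at 1 h (-0.11, adjusted p = 0.105) and was -0.16 against WT 7 at 2 h (adjusted p = 0.149), whereas Ddit3 was called at 0 h (0.38, adjusted p = 0.0353) and 0.5 h (0.37, adjusted p = 0.0497). Sesn2 was not called at any of the 4 times, but was called at 1 h against WT 4 to 6 alone (0.36, adjusted p = 0.0126) and in the fit of all libraries (0.23, adjusted p = 0.0228).

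Of all differences from WT cells at matched times with LPS or without, the largest among the 7 genes were those of Nfkb1 SSAA/SSAA cells. Trib3, Chac1 and Asns were at least 2-fold higher than in WT cells at 0, 0.5 and 1 h, with Trib3 near that limit at 0 and 0.5 h, and Atf4 was higher at all 3 times. The number called was 4 of 7 at 0 h, 5 at 0.5 h and 7 at 1 h, all higher, against 32.0%, 32.3% and 42.5% of all genes, of which 16.9%, 16.7% and 20.5% were called higher. At least 2-fold differences were found for 3 of the 7 genes at each time and for 0.510%, 0.551% and 1.17% of all genes. The summed neutrophil markers were 6.78 to 8.37 in these libraries, overlapping the 6.31 to 7.77 of WT cells at the same times. The summed dendritic cell markers were 4.483 to 4.754 at 0 h and 4.45 to 4.67 at 0.5 h, with only Xcr1 above the filter. In WT cells they were 4.349 to 4.482 and 4.23 to 4.44, and the lines overlapped at 1 h. The summed macrophage markers at 0.5 h were 18.82 to 19.15 against 18.65 to 18.81 in WT cells. The part of these markers was not tested.

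Chac1 moved furthest. In the 6 Nfkb1 SSAA/SSAA libraries it ran from 5.54 through 5.72 to 6.36 at 0 h, from 5.94 through 6.19 to 6.51 at 0.5 h and from 6.64 through 7.02 to 7.54 at 1 h, whereas the highest WT library of those times had 5.41. None of the groups overlapped at matched times, and the log2 differences were 1.29 (SE 0.15, adjusted p = 2.50e-11 by limma), 1.52 (SE 0.15, adjusted p = 2.79e-14) and 2.00 (SE 0.15, adjusted p = 5.46e-21). Leaving out any 1 replicate number of either line gave 1.91 to 2.09 at 1 h.

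Trib3 ran from 7.80 through 8.04 to 8.69 at 0 h, from 7.77 through 8.05 to 8.24 at 0.5 h and from 8.27 through 8.56 to 8.96 at 1 h. The lowest of these 18 values, 7.77, was above all 18 WT values of the same times, which reached 7.41. The log2 differences were 1.03 (SE 0.11, adjusted p = 3.60e-13 by limma) at 0 h, 1.03 (SE 0.11, adjusted p = 4.74e-13) at 0.5 h and 1.53 (SE 0.11, adjusted p = 2.08e-22) at 1 h. Without Nfkb1 SSAA/SSAA 6 the difference was 0.91 at 0 h and 0.98 at 0.5 h, below 2-fold, and at 0.5 h it was also just below 2-fold without WT 4 or 6 (0.999 and 0.996).

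Asns ran from 9.45 through 9.56 to 10.04 at 0 h, from 9.40 through 9.53 to 9.83 at 0.5 h and from 9.74 through 9.87 to 10.11 at 1 h. It too lay clear of the WT libraries, which ended at 8.81, and differed from them by 1.204 (SE 0.08, adjusted p = 7.87e-23 by limma), 1.15 (SE 0.08, adjusted p = 8.39e-22) and 1.29 (SE 0.08, adjusted p = 3.92e-25). Library 6 was the highest Nfkb1 SSAA/SSAA library at 0 h for Atf4, Ddit3, Trib3, Chac1 and Asns.

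Atf4 ran from 11.99 through 12.06 to 12.46 at 0 h, from 12.42 through 12.54 to 12.70 at 0.5 h and from 12.79 through 12.96 to 13.14 at 1 h, above the WT ranges at each time. The log2 differences were 0.38 (SE 0.05, adjusted p = 1.75e-09 by limma), 0.69 (SE 0.05, adjusted p = 1.22e-21) and 0.75 (SE 0.05, adjusted p = 3.21e-24). These calls, and those of Trib3, Chac1 and Asns, held with WT 4 to 6 or WT 7 to 9 alone as controls. They also held with any 1 replicate number of either line left out.

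The other 3 genes differed less. At 1 h Ddit3 (0.34, SE 0.10, adjusted p = 0.00412), Sesn2 (0.34, SE 0.08, adjusted p = 0.000312) and Ppp1r15a (0.35, SE 0.07, adjusted p = 1.31e-05, limma) were called higher with overlapping groups. Against WT 7 to 9 alone the Sesn2 difference was 0.20 and not called (adjusted p = 0.0855). Ppp1r15a at 0.5 h, called at 0.21 (adjusted p = 0.0128), was lost without any of WT 4, 5 or 6 (0.15 to 0.17, adjusted p = 0.0584 to 0.0842) and was -0.028 against WT 7 to 9 alone (adjusted p = 0.796). At 0 h, where it was not called, it was called against WT 7 to 9 alone (0.22, adjusted p = 0.0104).

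The 10 min DMSO control of the inhibitor samples was a further group that was not labelled as mutant and received neither inhibitor nor LPS. Its 3 libraries had Asns values of 8.99, 8.97 and 8.95 and lay above all 6 unstimulated WT libraries (8.30 to 8.66), a log2 difference of 0.54 (SE 0.10, adjusted p = 3.28e-05 by limma). Ppp1r15a at 10.24, 10.25 and 10.26 lay below them (-0.24, SE 0.08, adjusted p = 0.0278). That comparison called 2 of the 7 genes and 23.6% of all genes. DMSO exposure and experiment cannot be told apart in it, and the summed neutrophil markers were 7.57 to 8.27 in the DMSO libraries and 6.43 to 7.23 in the WT libraries, a difference whose part was not tested. Trib3 (7.22, 7.24 and 7.11) and Chac1 (4.66, 4.66 and 4.52) were not called (0.13, adjusted p = 0.532, and 0.05, adjusted p = 0.876) and overlapped the WT libraries.

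**Figure D2:**
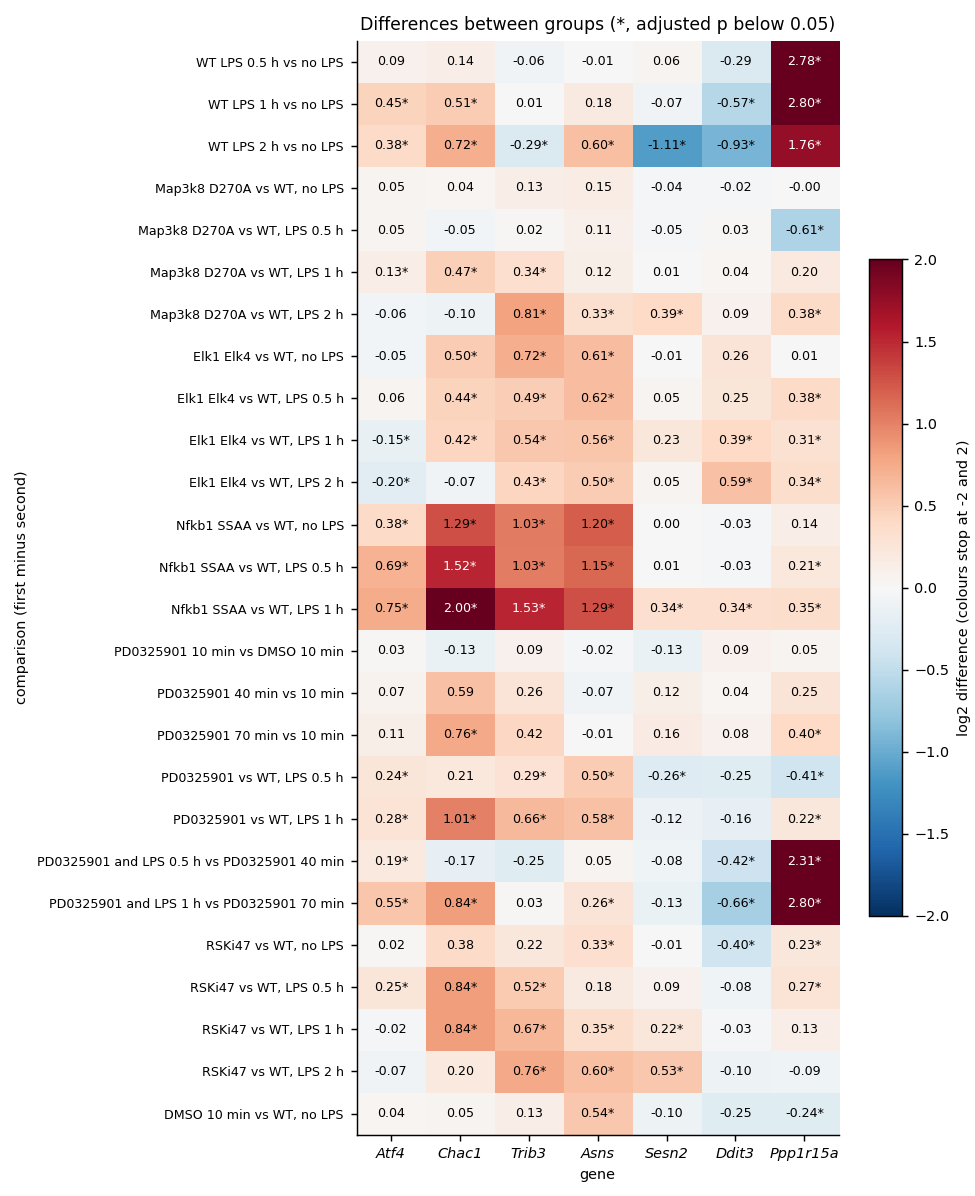
Log2 differences of the 7 genes (columns) in the comparisons of 2 groups listed (rows; LPS against no LPS is shown for WT and PD0325901 only), with colour and printed value giving size and direction and an asterisk an adjusted p below 0.05 by limma. The largest differences between genotypes were those of Chac1, Trib3 and Asns in Nfkb1 SSAA/SSAA cells, up to 2.00 for Chac1 at 1 h, and LPS in WT cells raised Ppp1r15a by up to 2.80.

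Whether ERK signalling itself bears on the 7 genes was addressed with PD0325901. After exposure for 10 min none was called against DMSO (limma, 0 of 7 and 0 at an unadjusted p below 0.05; 0.00% of all genes called, with 245 genes at an unadjusted p below 0.05). At 40 min against 10 min of inhibitor, 0 of 7 were called (3.58% of all genes called). An unadjusted p below 0.05 was found for 2 of the 7, beside 1747 of 11971 genes. With only these groups in the fit, Chac1 (0.59, adjusted p = 0.00207) and Ppp1r15a (0.25, adjusted p = 0.0102) were called higher at 40 min. After 70 min, Chac1 and Ppp1r15a were higher than at 10 min, 2 of 7 genes against 6.09% of all genes, and the fit of only the groups compared also called Trib3 (0.42, adjusted p = 0.0327).

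Chac1 had 4.45, 4.55 and 4.45 at 10 min, 4.99, 5.15 and 5.08 at 40 min and 5.11, 5.35 and 5.26 at 70 min of PD0325901 without LPS. The later groups lay above the first, and the 70 min difference was 0.76 (SE 0.22, adjusted p = 0.0165 by limma). Ppp1r15a had 10.31, 10.31 and 10.28 at 10 min and 10.69, 10.65 and 10.77 at 70 min (0.40, SE 0.10, adjusted p = 0.00266). With 3 libraries a group, leaving out PD0325901 1, 2 or 3 ended the Chac1 call (0.74 to 0.81, adjusted p = 0.0912 to 0.158), and leaving out PD0325901 3 ended that of Ppp1r15a (0.36, adjusted p = 0.0911). No vehicle control was sampled at 40 or 70 min, so time in culture and inhibitor cannot be told apart. The summed neutrophil markers were 7.33 to 8.10 at 10 min, 8.45 to 8.80 at 40 min and 8.45 to 8.49 at 70 min. Their part in these differences was not tested.

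With LPS, PD0325901-treated cells were compared with WT cells that had received LPS alone. At 0.5 h, 5 of 7 genes were called against 29.4% of all genes, with Ppp1r15a and Sesn2 lower and Atf4, Trib3 and Asns higher. At 1 h, 5 of 7 were called against 35.7%, all of them higher: Chac1, Trib3, Asns, Atf4 and Ppp1r15a. With only the groups compared in the fit, Ddit3 was also called lower at 0.5 h (-0.25, adjusted p = 0.0388) and 1 h (-0.16, adjusted p = 0.0422), and quantile normalization called it at 0.5 h (-0.26, adjusted p = 0.0426). The summed neutrophil markers were 8.11 to 8.82 in these PD0325901 libraries and 6.31 to 7.77 in the WT libraries, and their part was not tested.

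Ppp1r15a ran from 12.79 to 12.89 (median 12.89) in the 6 PD0325901 libraries of 0.5 h, below the WT minimum of 13.00, a log2 difference of -0.41 (SE 0.07, adjusted p = 1.21e-06 by limma). At 1 h it ran from 13.43 through 13.47 to 13.65 and overlapped WT cells (0.22, SE 0.07, adjusted p = 0.00664). The PD0325901 and Map3k8 D270A/D270A differences at 0.5 h were both negative, -0.41 and -0.61, but they share the WT libraries.

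Chac1 at 1 h ran from 6.01 through 6.08 to 6.20 with PD0325901 and from 4.81 through 5.06 to 5.41 in WT cells, a gap with no overlap (log2 difference 1.01, SE 0.15, adjusted p = 6.57e-08 by limma). Trib3 ran from 7.67 through 7.72 to 7.79 against at most 7.41 in WT cells (0.66, SE 0.11, adjusted p = 8.99e-07). Atf4 ran from 12.44 through 12.50 to 12.54 and also cleared the WT maximum of 12.29 (0.28, SE 0.05, adjusted p = 5.27e-06).

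Asns was 0.50 higher at 0.5 h (8.80 through 8.92 to 9.08 against 8.16 through 8.42 to 8.65, adjusted p = 1.18e-06) and 0.58 higher at 1 h (9.16 through 9.18 to 9.27 against 8.44 through 8.57 to 8.81, adjusted p = 1.35e-08, limma). These groups did not overlap, and the difference without LPS between DMSO and WT libraries was 0.54. At 0.5 h Trib3 was called at 0.29 (adjusted p = 0.0365 by limma). It lost its call without any 1 of 8 replicate numbers, PD0325901 1, 2, 3, 4 or 6 or WT 4, 6 or 7 (0.26 to 0.29, adjusted p = 0.051 to 0.0911). Sesn2 ran from 8.60 through 8.69 to 8.76 at 0.5 h, below all WT libraries (-0.26, SE 0.08, adjusted p = 0.0101).

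The PD0325901 libraries with LPS also have controls from the same series of inhibitor samples, kept for 40 or 70 min in inhibitor alone. Adding LPS for 0.5 h raised Ppp1r15a by 2.31 (SE 0.08, adjusted p = 8.75e-45 by limma) and Atf4 by 0.19 (adjusted p = 0.0199) and lowered Ddit3 by -0.42 (adjusted p = 0.011), 3 of 7 against 14.9% of all genes. At 1 h, 5 of 7 were called against 43.6%: Ppp1r15a at 2.80, Chac1 at 0.84, Atf4 at 0.55, Asns at 0.26 and Ddit3 at -0.66. None of the called groups overlapped, and Ppp1r15a rose with LPS while the MEK inhibitor was present. The summed neutrophil markers were 8.11 to 8.35 with LPS at 0.5 h and 8.45 to 8.80 after 40 min of inhibitor alone. At 1 h they were 8.28 to 8.82, overlapping the 8.45 to 8.49 of 70 min alone, and their part was not tested.

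Several smaller calls of this set depended on the libraries or settings used. The Ddit3 call at 0.5 h was lost without PD0325901 2 (-0.35, adjusted p = 0.176). Those of Atf4 at 0.5 h (0.18 to 0.21, adjusted p = 0.0699 to 0.119) and Asns at 1 h (0.24 to 0.26, adjusted p = 0.0902 to 0.136) were lost without PD0325901 1, 2 or 3. Atf4 at 0.5 h was also lost under quantile normalization (0.16, adjusted p = 0.0625) and Asns at 1 h with libraries centred on their median (0.24, adjusted p = 0.0505), and Trib3 at 0.5 h was called lower with only the groups compared in the fit (-0.25, adjusted p = 0.000781). The 6 PD0325901 libraries with LPS tended to be closest in pairs 3 numbers apart (1 and 4, 2 and 5, 3 and 6). The distance, the root mean square log2 difference over genes, was 0.112 to 0.125 within these pairs and 0.126 to 0.152 otherwise at 0.5 h, and 0.117 to 0.131 and 0.128 to 0.163, with overlap, at 1 h. The labels do not say whether such pairs share a culture, so the number of independent samples may be 3 rather than 6. When these pairs were averaged 15 of the 20 calls with PD0325901 remained. The 5 lost were Sesn2 (-0.26, adjusted p = 0.066) and Trib3 (0.29, adjusted p = 0.145) against WT at 0.5 h, Atf4 (0.19, adjusted p = 0.0828) and Ddit3 (-0.42, adjusted p = 0.0542) against inhibitor alone at 0.5 h, and Asns against inhibitor alone at 1 h (0.26, adjusted p = 0.0895).

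**Figure D3:**
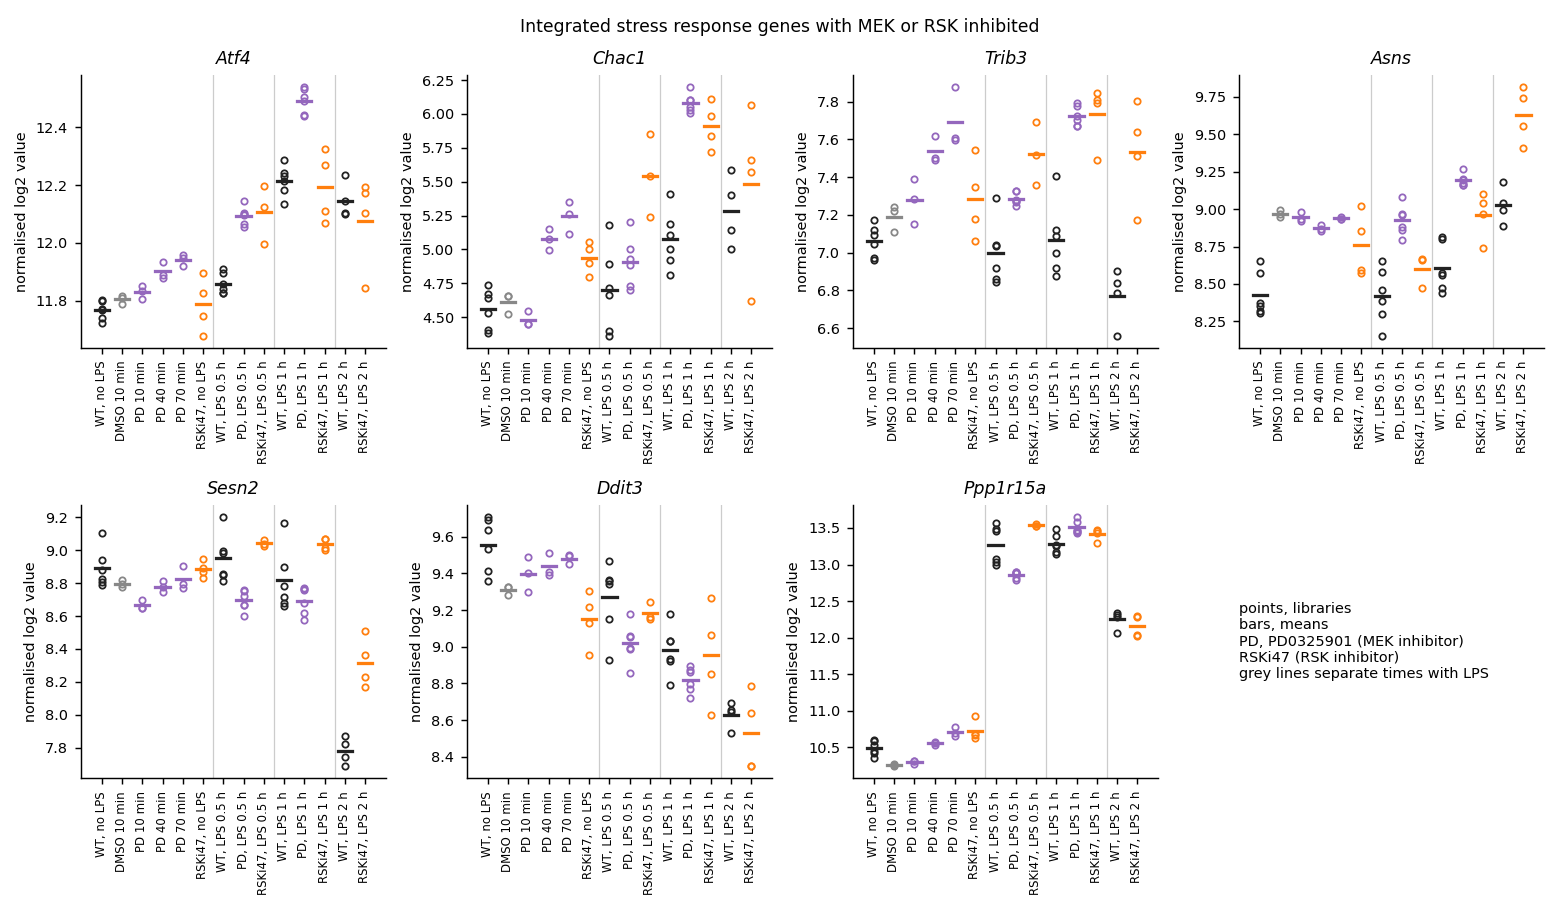
Normalised log2 values of the 7 genes (vertical axis) in WT, DMSO, PD0325901 and RSKi47 groups at each time (horizontal axis); points are libraries and horizontal bars group means. Chac1 reached 6.01 to 6.20 with PD0325901 and 1 h of LPS, above the WT libraries of that time, and Ppp1r15a with PD0325901 stood at 12.79 to 12.89 at 0.5 h, below them.

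RSK kinases act below ERK, and RSKi47 was used to test that branch. The inhibitor group differed from WT cells in about as many genes as the Elk1-/- Elk4-/- line: at 0 h, 26.8% of all genes were called higher and 26.3% lower, against 2 and 1 of the 7 genes. At the later times 48.2%, 52.8% and 52.1% were called at 0.5, 1 and 2 h, against 4, 4 and 3 of the 7. All of these later calls were higher, when 23.7%, 26.5% and 27.5% of all genes were called higher. Stromal markers were higher in RSKi47 libraries, as given above. The summed neutrophil markers were 7.12 to 8.60 in RSKi47 libraries and 6.31 to 7.77 in WT libraries, and the summed B-cell markers 5.27 to 5.64 and 5.52 to 6.47. At 2 h the summed T-cell markers were 4.57 to 4.85 with RSKi47 and 5.17 to 6.32 in WT cells. The part of these markers in the differences was not tested.

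Trib3 and Chac1 gave the widest differences. Trib3 had 7.52, 7.36 and 7.69 at 0.5 h, 7.79, 7.49, 7.85 and 7.81 at 1 h and 7.80, 7.17, 7.51 and 7.64 at 2 h in RSKi47-treated cells, each group wholly above WT cells of that time. Its log2 differences were 0.52 (SE 0.13, adjusted p = 0.00073 by limma), 0.67 (SE 0.12, adjusted p = 2.65e-06) and 0.76 (SE 0.13, adjusted p = 1.14e-06). Chac1 had 5.85, 5.24 and 5.54 at 0.5 h and 5.98, 5.72, 6.11 and 5.84 at 1 h, also clear of WT cells, with differences of 0.84 at both times (SE 0.19, adjusted p = 9.63e-05, and SE 0.17, adjusted p = 1.85e-05).

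Sesn2 fell less far in RSKi47-treated cells by 2 h, with 8.51, 8.17, 8.23 and 8.36 against 7.69 to 7.87 in WT cells (log2 difference 0.53, SE 0.10, adjusted p = 2.13e-06 by limma). Asns at 2 h was 9.82, 9.40, 9.74 and 9.56, above all WT libraries (0.60, SE 0.10, adjusted p = 4.15e-07). For this gene the DMSO control without LPS also lay above unstimulated WT cells, as given above. Atf4 was called only at 0.5 h, with 12.20, 11.997 and 12.12 against at most 11.91 (0.25, SE 0.06, adjusted p = 0.000519). Before LPS, Ddit3 had 9.30, 9.13, 9.22 and 8.96, below the WT minimum of 9.36 (-0.40, SE 0.11, adjusted p = 0.0015).

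Other calls with RSKi47 were small. Ppp1r15a at 0 h had 10.62, 10.68, 10.66 and 10.92 (0.23, adjusted p = 0.00661 by limma), lost without RSKi47 4 (0.17, adjusted p = 0.0808). Sesn2 at 1 h (0.22, adjusted p = 0.0311) was lost without any 1 of WT 4, 5, 6 or 9 or RSKi47 1 or 4 (0.19 to 0.21, adjusted p = 0.0506 to 0.083). Against WT 7 to 9 alone, the calls of Asns at 0 h (0.23, adjusted p = 0.0728) and 1 h (0.23, adjusted p = 0.066), Ddit3 at 0 h (-0.28, adjusted p = 0.0817), Ppp1r15a at 0.5 h (0.04, adjusted p = 0.748) and Sesn2 at 1 h (0.09, adjusted p = 0.509) were lost. Ppp1r15a at 1 h was called against these 3 libraries (0.22, adjusted p = 0.0121). Against WT 4 to 6 alone, Ppp1r15a at 0 h was lost (0.15, adjusted p = 0.0867), and Chac1 at 0 h (0.46, adjusted p = 0.0468) and Asns at 0.5 h (0.32, adjusted p = 0.0139) were called. With only the groups compared in the fit, Ppp1r15a at 0.5 h (0.27, adjusted p = 0.14) and Sesn2 at 1 h (0.22, adjusted p = 0.0728) were not called and Chac1 at 0 h was (0.38, adjusted p = 0.0029).

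A difference at one time can be carried over from before LPS, so the LPS response itself was compared between lines, as the change from 0 h in one line minus that in WT cells. Of 91 such differences, 12 were called, when 0.0251% to 21.0% of all genes were called per comparison, as given below. For the PD0325901 libraries, the change was taken from inhibitor alone.

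The early response of Ppp1r15a was smaller with TPL-2 inactive and with MEK inhibited. Its change at 0.5 h was 2.17 in Map3k8 D270A/D270A cells and 2.78 in WT cells, a difference of -0.61 (SE 0.11, adjusted p = 0.0024 by limma, 1 of 7 called against 0.109% of all genes). With PD0325901 it was 2.31, a difference of -0.47 (SE 0.11, adjusted p = 0.00463, 1 of 7 against 1.49%). The starting group of that change, 40 min of inhibitor alone, had a mean of 10.55, above 10.30 at 10 min and 10.25 with DMSO. Its part in the difference was not tested. With the replicate number as a block, neither the Map3k8 D270A/D270A difference (-0.61, adjusted p = 0.137) nor the PD0325901 difference (-0.47, adjusted p = 0.188) was called, and the latter was also lost with only the groups compared in the fit (adjusted p = 0.0705). Within replicate sets the Map3k8 D270A/D270A difference was -0.32 in the first (adjusted p = 0.278) and -0.89 in the second (adjusted p = 0.000129). Differences at 1 h were not called for any of the 7 genes in either comparison (2.02% and 3.58% of all genes called). At an unadjusted p below 0.05 there were 0 of 7 in both, beside 983 of 11884 and 1667 of 11971 genes. Within the first replicate set the 1 h difference of Ppp1r15a in Map3k8 D270A/D270A cells was called (0.31, adjusted p = 0.0193 by limma).

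At 2 h, Map3k8 D270A/D270A cells differed in the response of Trib3 (0.67, SE 0.17, adjusted p = 0.00265), Sesn2 (0.43, SE 0.15, adjusted p = 0.0343) and Ppp1r15a (0.38, SE 0.12, adjusted p = 0.0211), 3 of 7 by limma against 15.5% of all genes. Trib3 fell by 0.29 in WT cells and rose by 0.39 in the mutant. Within the first replicate set, Trib3 (0.25, adjusted p = 0.14) and Sesn2 (0.12, adjusted p = 0.282) were not called, whereas Atf4 (-0.20, adjusted p = 0.00862) and Chac1 (-0.50, adjusted p = 0.0357) were called lower. In the second set, with WT 7 alone at 2 h, the differences were 1.09 for Trib3 (adjusted p = 0.00964), 0.68 for Sesn2 (adjusted p = 0.0225) and 0.34 for Ppp1r15a (adjusted p = 0.129). With only the groups compared in the fit the Sesn2 call was lost (adjusted p = 0.153), and the block on replicate number ended those of Trib3 and Sesn2 (adjusted p = 0.0573 and 0.10). The Sesn2 call was also lost without any 1 of WT 4, 6, 7 or 8 or Map3k8 D270A/D270A 4, 5 or 6 (0.37 to 0.45, adjusted p = 0.0502 to 0.0834), and that of Ppp1r15a without Map3k8 D270A/D270A 1 or 2 (0.34 to 0.36, adjusted p = 0.0531 to 0.0671).

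In Nfkb1 SSAA/SSAA cells the responses of Atf4, Chac1 and Trib3 exceeded those of WT cells. Atf4 changed by 0.40 at 0.5 h and 0.82 at 1 h, against 0.09 and 0.45, differences of 0.31 (SE 0.07, adjusted p = 0.0137 by limma, 1 of 7 called against 0.309% of all genes) and 0.37 (SE 0.07, adjusted p = 6.44e-05). Chac1 changed by 1.23 at 1 h against 0.51 (difference 0.71, SE 0.22, adjusted p = 0.0267) and Trib3 by 0.50 against 0.01 (difference 0.50, SE 0.16, adjusted p = 0.0354), which made 3 of 7 called at 1 h against 6.07%. With the replicate number as a block, Sesn2 (0.33, adjusted p = 0.00172) and Ppp1r15a (0.21, adjusted p = 0.0427) were called there as well. With only the groups compared in the fit, the calls of Atf4 at 0.5 h (adjusted p = 0.27), Chac1 (adjusted p = 0.0514) and Trib3 (adjusted p = 0.169) were lost. The Atf4 call at 0.5 h was lost without WT 6 or Nfkb1 SSAA/SSAA 4 (0.29 to 0.30, adjusted p = 0.0675 to 0.0712). The Chac1 call was lost without WT 4, 6, 7 or 9 or Nfkb1 SSAA/SSAA 2 or 4 (0.67 to 0.71, adjusted p = 0.0511 to 0.0666), and the Trib3 call without WT 4, 6, 7 or 9 or Nfkb1 SSAA/SSAA 2 or 5 (0.45 to 0.51, adjusted p = 0.0573 to 0.131).

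RSKi47-treated cells differed in response at 2 h for Sesn2 (0.54, SE 0.13, adjusted p = 0.00107), Trib3 (0.54, SE 0.18, adjusted p = 0.0238) and Ppp1r15a (-0.32, SE 0.11, adjusted p = 0.0288), 3 of 7 by limma against 21.0% of all genes. No gene of the 7 was called at 0.5 h (0.0251% of all genes called) or at 1 h (5.54%). At an unadjusted p below 0.05 there were 1 of 7 at 0.5 h and 2 of 7 at 1 h, beside 451 and 1916 of 11971 genes. With the replicate number as a block, Chac1 (0.46, adjusted p = 0.0247), Trib3 (0.45, adjusted p = 0.0185), Ddit3 (0.38, adjusted p = 0.0287) and Sesn2 (0.23, adjusted p = 0.0154) were called at 1 h and Ddit3 at 2 h (0.36, adjusted p = 0.0306). The Trib3 call was lost without WT 6 or RSKi47 1 or 3 (0.47 to 0.51, adjusted p = 0.0644 to 0.0922). That of Ppp1r15a was lost without WT 5 or RSKi47 1 or 4 (-0.31 to -0.21, adjusted p = 0.0601 to 0.246), with the replicate block (-0.29, adjusted p = 0.0832) and with only the groups compared in the fit (adjusted p = 0.0673). In Elk1-/- Elk4-/- cells none of the 7 responses was called to differ at 0.5, 1 or 2 h by limma (0.0589%, 1.35% and 16.9% of all genes called). At an unadjusted p below 0.05 there were 1, 1 and 3 of the 7, beside 528, 862 and 3446 of 11884 genes. The response of Ppp1r15a at 2 h was called with only the groups compared in the fit (0.34, adjusted p = 0.0132). With the replicate number as a block 5 responses were called, among them Ppp1r15a at 1 h (0.30, adjusted p = 0.0248) and 2 h (0.36, adjusted p = 0.0031).

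Levels were ordered over all 25 groups for each gene. Atf4 was highest in Nfkb1 SSAA/SSAA cells at 1 h (mean 12.96) and lowest in Elk1-/- Elk4-/- cells at 0 h (11.72). The same Nfkb1 SSAA/SSAA group headed Trib3 (8.60, lowest 6.77 in WT at 2 h), Chac1 (7.08, lowest 4.48 with PD0325901 at 10 min), Sesn2 (9.15, lowest 7.78 in WT at 2 h) and Asns (9.90, lowest 8.42 in WT at 0.5 h). Ddit3 was highest in Elk1-/- Elk4-/- cells at 0 h (9.81) and lowest with RSKi47 at 2 h (8.53), and Ppp1r15a was highest in Elk1-/- Elk4-/- cells at 0.5 h (13.65) and lowest with DMSO (10.25).

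Neighbouring groups in these orders mostly overlapped. All 24 neighbouring steps did so for Ddit3, Trib3 and Asns, 23 for Chac1 and Sesn2, 21 for Atf4 and 18 for Ppp1r15a. Over the 25 group means, which share libraries of the same cultures, Pearson's r was 0.90 between Atf4 and Chac1, 0.82 between Trib3 and Chac1, 0.71 between Trib3 and Asns and 0.70 between Chac1 and Asns, but -0.38 between Atf4 and Ddit3. Of all tested genes, the closest to Atf4 and to Chac1 was the other of that pair, the closest to Ppp1r15a was Klf6 (r = 0.97), to Sesn2 Rfx3 (0.96), to Ddit3 Nosip (0.94), to Asns Nars (0.91) and to Trib3 Ttc12 (0.83). These values describe the groups and carry no test.

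The wider pathway was read from lists of related genes, described by counts. Of 21 further ATF4 targets in amino acid synthesis and transport, 17 passed the filter in the fit of all libraries. In Nfkb1 SSAA/SSAA cells 17 of 17 were called higher at 0 h, with a median log2 difference of 0.52 beside 0.00 over all genes, 15 at 0.5 h (median 0.44) and 16 at 1 h (median 0.58), and none was called lower. Of all genes, 16.9%, 16.7% and 20.5% were called higher at these times. Phgdh, which starts serine synthesis, was 8.98 ± 0.28 (SD, n = 6) in Nfkb1 SSAA/SSAA cells and 7.38 ± 0.15 (SD, n = 6) in WT cells at 0 h, a log2 difference of 1.60 (SE 0.10, adjusted p = 9.81e-26 by limma). Mthfd2, of mitochondrial folate metabolism, was 0.88 higher at 1 h (adjusted p = 8.66e-20), and Slc7a5, a leucine transporter, 0.88 (adjusted p = 7.76e-14).

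In other comparisons with WT cells, 8 of 17 were higher and none lower in the DMSO control (median 0.20; 12.5% and 11.1% of all genes). Of the same 17, 10 were higher with PD0325901 and LPS at 1 h (median 0.27, Phgdh 0.71; 16.4% of all genes), and 9 were higher with RSKi47 at 0 h (median 0.18; 26.8% of all genes). In the 62-library fit, with 16 of 21 tested, LPS raised 9 and lowered 2 at 2 h in WT cells (median 0.28), when 34.7% of all genes were called higher and 36.8% lower. The cystine transporter gene Slc7a11 rose by 3.07 (adjusted p = 1.64e-20 by limma) and the gluconeogenic enzyme gene Pck2 was lower (-0.85, adjusted p = 2.65e-13). At 2 h Map3k8 D270A/D270A cells had 8 of 16 higher and 1 lower (median 0.19; 14.6% and 13.1% of all genes), the 1 being Slc7a11 (-0.68, adjusted p = 0.00617). Elk1-/- Elk4-/- cells had 6 higher and 2 lower at 0 h (median 0.16; 27.2% and 24.6% of all genes).

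**Figure D4:**
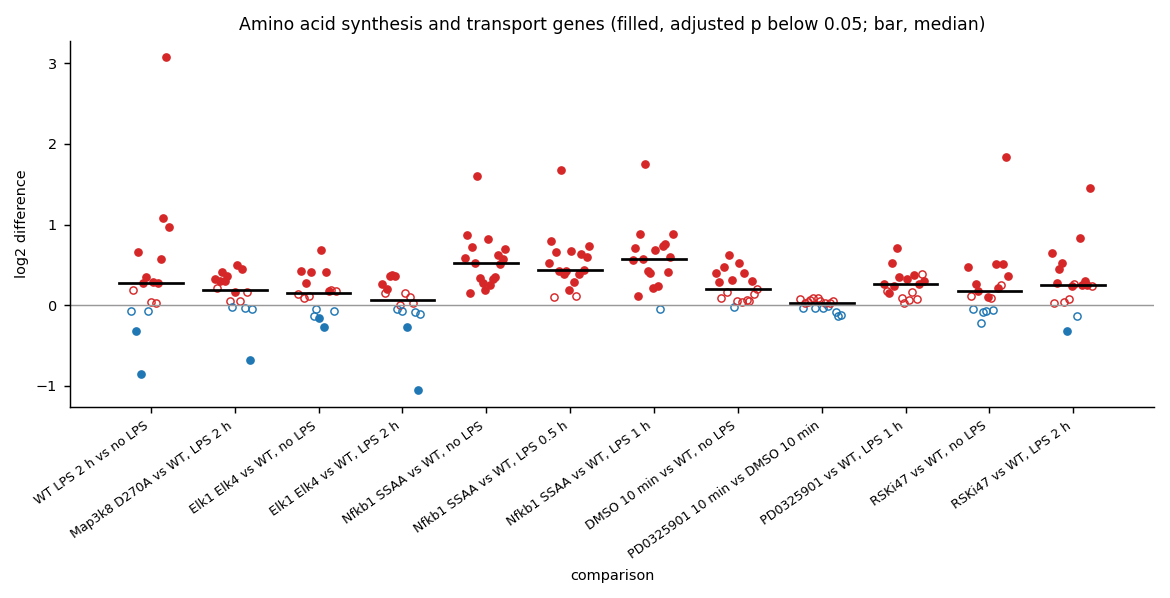
Log2 differences (vertical axis) of the tested ATF4 target genes of amino acid synthesis and transport in each comparison (horizontal axis); points are genes, filled where the adjusted p was below 0.05 by limma, and bars are medians. In Nfkb1 SSAA/SSAA cells at 0 h all 17 genes were called higher with a median of 0.52, against 8 of 17 and a median of 0.20 for the DMSO control.

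Aminoacyl-tRNA synthetases, many of which ATF4 also controls, were read in the same way. Of 21 listed genes, 14 were higher and 2 lower in Nfkb1 SSAA/SSAA cells at 0 h (median 0.14), 12 and 1 at 0.5 h and 16 and 2 at 1 h (median 0.16), led by Aars (0.51 at 1 h, adjusted p = 7.18e-17 by limma) and Gars (0.39, adjusted p = 1.06e-20). Of all genes, 16.9%, 16.7% and 20.5% were called higher and 15.1%, 15.6% and 21.9% lower in that line at these times. Map3k8 D270A/D270A cells at 2 h had 12 of 21 higher and none lower (median 0.13; 14.6% and 13.1% of all genes), and RSKi47-treated cells at 2 h had 17 higher and 1 lower (median 0.22; 27.5% and 24.6%).

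Of the 13 kinases and core factors of the response that were tested, 1 was higher and 1 lower in Nfkb1 SSAA/SSAA cells at 0 h and at 0.5 h, and 2 and 2 at 1 h, beside the 32.0%, 32.3% and 42.5% of all genes called in either direction. Eif2ak3, which encodes PERK, was 0.27 higher at 1 h (adjusted p = 7.55e-06 by limma). LPS changed 12 of the 13 in WT cells at 2 h, 6 in each direction, when 71.5% of all genes were called. Ppp1r15b, which encodes the constitutive counterpart of GADD34, rose by 1.51 (adjusted p = 2.93e-41 by limma), Eif2ak2, which encodes PKR, rose by 0.85 (adjusted p = 1.13e-08) and Eif2ak3 was lower (-1.26, adjusted p = 6.15e-28).

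Of 23 genes of the ATF6 and XBP1 arms of the unfolded protein response, 3 were higher and 10 lower in Nfkb1 SSAA/SSAA cells at 0 h (median -0.07), 2 and 10 at 0.5 h (median -0.09) and 2 and 11 at 1 h (median -0.11). Of all genes, 15.1%, 15.6% and 21.9% were called lower at these times. In the DMSO control against WT cells 14 of the 23 were higher and none lower (12.5% and 11.1% of all genes). Of 14 other ATF4-linked genes of transcription and signalling, 4 were higher and 3 lower in Nfkb1 SSAA/SSAA cells at 0 h (median 0.01). For stress pathways that share Sesn2 as a target, 6 of 12 NRF2 targets were higher and 1 lower at 0 h in that line (median 0.15), and none of 12 p53 targets was higher and 3 were lower (median -0.10), when 16.9% of all genes were called higher and 15.1% lower. Of 20 immediate early genes, 18 were higher at 0.5 h of LPS in WT cells (median 2.52; 7.82% of all genes), and of 12 genes of the early interferon response, 12 were higher at 2 h (median 3.22; 34.7% of all genes).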

How the data were processed

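The 7 genes and the gene lists were chosen with earlier results of these data known, so none of them is an independent selection. RNA-seq values of 18098 genes in all libraries were used as deposited. Per the study's methods, RNA was prepared with the RNeasy kit, made into strand-specific TruSeq libraries and sequenced single-end on a HiSeq instrument, and the authors mapped and counted reads with STAR and RSEM on RefSeq genes of mm10; the submitters' processing notes list RSEM 1.2.29, STAR 2.5.1b and DESeq2 1.10.1. The deposited values are on a log2 scale and normalised by the authors, by a transformation not given in the sources used here. The range was from -2.40 to 19.8 apart from 1 value of 57.7 (Fosb, RSKi47 at 1 h), which was above the limit of 25 set here and was treated as missing. Counts and depth were not used here, so the precision of low genes such as Chac1 is unknown and no counting intervals are given. The authors tested groups with DESeq2, which needs counts. For log2 values limma 3.58.1 (R 4.3.3) was used.

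Group means were fitted over 62 libraries (WT, Map3k8 D270A/D270A and Elk1-/- Elk4-/-) or all libraries (other comparisons). Genes needed a linear value of at least 10 in 4 or 3 libraries. P-values were adjusted over all genes tested by the Benjamini-Hochberg method, with calls at 0.05. Libraries are biological replicates per the study's methods, but the labels do not say which share a mouse. Samples were grouped by the labels. Replicate numbers were checked by the correlation of deviations from group means between times: it was 0.165 to 0.793 for same-numbered WT libraries, 0.124 to 0.761 for Map3k8 D270A/D270A, 0.145 to 0.672 for Nfkb1 SSAA/SSAA and 0.109 to 0.697 for RSKi47, so numbers were taken to pair times within these lines. Between Map3k8 D270A/D270A and WT cells it was -0.453 to -0.0576, so lines were not paired. Named genes are the 7, up to 3 list members with the largest called difference in each direction, and the closest genes by correlation of group means. Alternatives covered the filter, normalization, variance model, libraries in the fit, replicate block, replicate sets and controls. They also covered leaving out each replicate number of a line at all its times. Scripts were tested on simulated data.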

Additional observations from a re-analysis of the deposited data

Results flagged for a closer look

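Among 140 sets of 4 to 10 libraries of a gene and group, 4 held a library far from the others, and chance alone marks about 1 in 20 such sets. Nfkb1 SSAA/SSAA 6 at 0 h stood above its group for Ddit3 (10.04, next 9.51) and for Trib3 (8.69, next 8.07), Nfkb1 SSAA/SSAA 2 at 1 h stood above its group for Ddit3 (9.77, next 9.36), and RSKi47 2 at 1 h stood below its group for Trib3 (7.49, next 7.79).

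When 0.0251% to 21.0% of all genes were called per comparison, the LPS response differed from that of WT cells, by a limma test of the difference itself, in 12 of 91 cases. In Map3k8 D270A/D270A cells these were Ppp1r15a at 0.5 h (-0.61) and at 2 h (0.38), Sesn2 at 2 h (0.43) and Trib3 at 2 h (0.67). In Nfkb1 SSAA/SSAA cells they were Atf4 at 0.5 h (0.31) and 1 h (0.37), Chac1 at 1 h (0.71) and Trib3 at 1 h (0.50). With PD0325901 it was Ppp1r15a at 0.5 h (-0.47), and with RSKi47 they were Ppp1r15a (-0.32), Sesn2 (0.54) and Trib3 (0.54) at 2 h.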

How the results depend on the processing

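Of the called differences, 841 of 914 values under other settings kept direction and call, 72 kept direction and lost the call, and 1 reversed; of those not called, 61 of 1431 gained a call in the same direction and 2 in the opposite one. Requiring a 2-fold difference left 4 of 12 calls for LPS in WT cells, 9 of 16 for Nfkb1 SSAA/SSAA, 3 of 20 for PD0325901, and 0 of 8, 0 of 18, 0 of 14 and 0 of 12 for Map3k8 D270A/D270A, Elk1-/- Elk4-/-, RSKi47 and the response differences. Response differences numbered 7 with only the libraries of the groups compared, which ended those of Atf4 at 0.5 h (0.31, adjusted p = 0.27), Chac1 at 1 h (0.71, adjusted p = 0.0514) and Trib3 at 1 h (0.50, adjusted p = 0.169) in Nfkb1 SSAA/SSAA cells, Sesn2 at 2 h in Map3k8 D270A/D270A cells (0.43, adjusted p = 0.153), Ppp1r15a at 0.5 h with PD0325901 (-0.47, adjusted p = 0.0705) and Ppp1r15a at 2 h with RSKi47 (-0.32, adjusted p = 0.0673). The same fit ended the calls of Sesn2 in Map3k8 D270A/D270A cells at 2 h (0.39, adjusted p = 0.178), Ppp1r15a in Nfkb1 SSAA/SSAA cells (0.21, adjusted p = 0.148) and with RSKi47 (0.27, adjusted p = 0.14) at 0.5 h, Sesn2 with RSKi47 at 1 h (0.22, adjusted p = 0.0728), Trib3 in Map3k8 D270A/D270A cells at 1 h (0.34, adjusted p = 0.0555) and Chac1 in Elk1-/- Elk4-/- cells at 0.5 h (0.44, adjusted p = 0.0692) and 1 h (0.42, adjusted p = 0.0613), and the cause was not tested. Map3k8 D270A/D270A calls numbered 5 within WT 7 to 9. Leaving out each replicate number gave 5 to 9 calls for Map3k8 D270A/D270A (5 without Map3k8 D270A/D270A 2 or WT 7) and 7 to 13 response differences (7 without WT 6). Asns with 10 min of PD0325901 was 0.52 (adjusted p = 6.34e-05) against untreated WT cells in place of DMSO, and Ppp1r15a in Nfkb1 SSAA/SSAA cells at 0.5 h was -0.028 (adjusted p = 0.796) against WT 7 to 9. Quantile normalization ended 8 calls and added 6, and the cause was not tested. With the replicate set as a term, an alternative added after the data were seen, Ddit3 at 0.5 h and Asns at 1 h were also called in WT cells.

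The replicate block raised the calls for LPS in WT cells from 12 to 15 and the response differences from 12 to 19 (5 lost, among them Ppp1r15a with PD0325901, -0.47 with adjusted p = 0.188; 12 gained). Of those gained, 5 were in Elk1-/- Elk4-/- cells, where same-numbered libraries correlated at only -0.0454 to 0.595: Ppp1r15a at 1 and 2 h, Sesn2 at 1 h (0.24, adjusted p = 0.0238), Ddit3 at 2 h (0.39, adjusted p = 0.0143) and Trib3 at 2 h (-0.32, adjusted p = 0.032). Between lines and within the PD0325901 series, where numbers are shared without pairing, it gave 9 calls for Map3k8 D270A/D270A (8 without it), 15 for Nfkb1 SSAA/SSAA (16) and 24 for PD0325901 (20), and Chac1 in Map3k8 D270A/D270A cells at 2 h became 0.40 (adjusted p = 0.026). No paired analysis was possible for Elk1-/- Elk4-/- and RSKi47 against WT because these groups share at most 1 number. The depth of the single libraries was not used here, so what it limits for each value cannot be given.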
